A study of Mus musculus with 52 samples.

Results

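Transcripts of 9 genes of the transforming growth factor beta (TGF-beta) pathway were followed in 52 mouse mammary tumours. The genes were chosen by name: the ligands Tgfb1, Tgfb2 and Tgfb3, the receptors Tgfbr1 and Tgfbr2, the signal transducer Smad3, the inhibitor Smad7, the activin subunit gene Inhba and the latency protein gene Ltbp1. All 9 were found by their Ensembl identifiers among the 47729 genes deposited, and all 9 were among the 17899 genes that passed the filter on low counts.

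The study asked how antibodies against the immune checkpoint proteins CTLA4 and PD-L1 change gene expression in tumours of young and of aged mice. Every tumour grew from the same transplanted line, 4T1, a mouse mammary carcinoma line of Balb/C origin that is widely used as a model of triple-negative breast cancer. Balb/C hosts received 100000 of these cells in the mammary fat pad, and the labels name no engineered allele in the host or in the cells. Young hosts were 8 to 10 weeks old by the sample labels (8 to 12 weeks by the protocol), and aged hosts were over 12 months old. Antibody was injected into the peritoneum 3 times, at 200 µg each, on day 7, day 10 and day 13. The antibodies were clone LTF-2 (the isotype control), clone 10F.9G2 (anti-PD-L1) and clone 9D9 (anti-CTLA4). There were 7 isotype tumours at each age. Anti-PD-L1 was given to 10 young and 8 aged hosts and anti-CTLA4 to 12 young and 8 aged hosts. The labels number the tumours of each group as biological replicates.

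TGF-beta is secreted in a latent complex, in which the ligand stays bound to its own propeptide and to a latent TGF-beta binding protein such as Ltbp1 that anchors it in the matrix. Once released, the ligand binds the type II receptor Tgfbr2, which recruits and phosphorylates the type I receptor Tgfbr1, and the active type I receptor phosphorylates Smad2 and Smad3. Activins, dimers of inhibin beta chains such as the product of Inhba, signal through other receptors to the same Smad proteins, and Smad7 is a target gene of the pathway that blocks the type I receptor. In tumours TGF-beta is known for restraining T cells and for driving fibroblasts to make matrix. All of these steps except transcription act on proteins, which were not measured here.

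Total RNA of whole tumours of up to about 150 mm3 was sequenced, with 9549847 to 53778370 estimated counts per library and a median of 20665734. Fewer cells of a type and less RNA per cell cannot be told apart in such material. Epithelial keratin and adhesion genes, the markers of the 4T1 cells, were detected in every group, with a log2 summed CPM (counts normalised to library size) of 9.31 to 11.8 over the libraries. The labels assign the libraries to 3 sequencing batches of 22, 19 and 11 libraries, which do not cross the groups evenly. All 7 young isotype libraries and 9 of 10 young anti-PD-L1 libraries were in batch 2, all 8 aged anti-PD-L1 and 7 of 8 aged anti-CTLA4 libraries were in batch 1, and the aged isotype libraries were split between batch 1 (3) and batch 3 (4). Aged and young isotype tumours, and aged and young anti-PD-L1 tumours, therefore share no batch, and only the anti-CTLA4 groups allow an age comparison within one. In 4 libraries (young isotype replicates 1 and 6, young anti-CTLA4 replicate 8 and aged isotype replicate 3) the scaling factor of the trimmed mean of M-values (TMM) was under 0.8. The same 4 had negative length trends of -0.44 to -0.19, the length trend being the slope of a library's log2 deviations on log2 gene length, which ran from -0.44 to 0.24 over all libraries. A negative slope means that long genes were low in that library.

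Promoters are shown first, for the 3 genes that differed with host age below (Tgfb1, Tgfbr1 and Inhba) and for the pair that varied together most closely between tumours (Smad3 and Ltbp1). Each sequence is the 250 bases before the RefSeq transcript start on GRCm38.p6, read 5′ to 3′ on the gene's strand. Capitals mark matches, on either strand, to GTCTAGAC (the SMAD palindrome), TGANTCA (AP-1), TGACGTCA (the cyclic AMP response element), TATAAA (the TATA box) or GGGCGG (the GC box), and no marked match overlaps another. Tgfb1 spans chr7:25687002-25705077 on the plus strand (GENCODE vM21, GRCm38), Tgfbr1 chr4:47353222-47414931 on the plus strand, Inhba chr13:16011851-16031621 on the plus strand, Smad3 chr9:63646767-63757994 on the minus strand and Ltbp1 chr17:75005568-75392512 on the plus strand.
Tgfb1, chr7:25686752-25687001, plus strand: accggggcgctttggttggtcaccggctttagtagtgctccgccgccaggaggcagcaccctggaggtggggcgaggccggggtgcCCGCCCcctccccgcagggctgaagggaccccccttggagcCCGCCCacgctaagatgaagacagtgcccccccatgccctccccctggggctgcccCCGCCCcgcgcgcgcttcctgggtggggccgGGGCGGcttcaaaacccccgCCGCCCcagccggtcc
Tgfbr1, chr4:47352972-47353221, plus strand: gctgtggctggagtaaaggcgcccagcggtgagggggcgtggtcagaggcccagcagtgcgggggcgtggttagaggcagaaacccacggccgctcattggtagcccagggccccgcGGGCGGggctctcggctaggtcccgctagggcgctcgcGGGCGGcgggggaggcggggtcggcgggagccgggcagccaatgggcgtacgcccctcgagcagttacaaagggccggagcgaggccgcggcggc
Inhba, chr13:16011601-16011850, plus strand: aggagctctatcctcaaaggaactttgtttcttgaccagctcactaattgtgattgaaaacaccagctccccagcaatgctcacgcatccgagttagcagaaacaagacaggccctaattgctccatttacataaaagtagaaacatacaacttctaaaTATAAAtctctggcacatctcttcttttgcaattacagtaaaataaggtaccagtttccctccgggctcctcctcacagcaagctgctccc
Smad3, chr9:63757995-63758244, minus strand: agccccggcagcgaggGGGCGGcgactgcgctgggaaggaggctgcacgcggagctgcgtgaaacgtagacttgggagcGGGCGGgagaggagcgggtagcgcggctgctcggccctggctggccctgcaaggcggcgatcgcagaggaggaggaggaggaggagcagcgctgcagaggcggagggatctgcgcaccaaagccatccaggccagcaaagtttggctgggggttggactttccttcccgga
Ltbp1, chr17:75005279-75005528, plus strand: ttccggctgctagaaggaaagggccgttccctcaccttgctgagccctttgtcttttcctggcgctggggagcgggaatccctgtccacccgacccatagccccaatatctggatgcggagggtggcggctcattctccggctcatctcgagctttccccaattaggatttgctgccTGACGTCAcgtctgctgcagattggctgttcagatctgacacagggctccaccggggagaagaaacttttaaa

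The Tgfb1 window was 75.2% G+C with 5 GC boxes, and the Tgfbr1 window was 74.8% G+C with 2 GC boxes, against a median of 52.4% over the 32851 RefSeq promoter windows of the same length, 32.7% of which hold a GC box. The Inhba window differed from both: it was 43.2% G+C, held no GC box and had a TATAAA that begins 91 bases before the start, a word found in 12.4% of all windows. The Smad3 window was 69.2% G+C with 2 GC boxes. The Ltbp1 window was 56.8% G+C and held the only cyclic AMP response element among the members' windows, beginning 73 bases before the start, where 1.55% of all windows hold one. No member window held the SMAD palindrome (0.167% of all windows) or the AP-1 word (6.75%). The shorter SMAD word CAGAC, which 42.2% of all windows hold and which is not capitalised, was absent from the Tgfb1, Tgfbr1, Inhba and Smad3 windows printed and present once in that of Ltbp1. RefSeq windows were matched for 7 of the 9 members, and none was used for Tgfb3 or Smad7. Tgfbr1 and Ltbp1 each had a further window at another start, which is not printed. That of Tgfbr1 was 52.8% G+C with no GC box and 1 CAGAC. That of Ltbp1 was 50.8% G+C with no cyclic AMP response element and 2 CAGAC.

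Levels of different genes were compared in TPM, a unit that corrects for transcript length and library size. Tgfb1 was the most abundant member, with a median of 55.7 TPM over the 52 tumours and a range of 15.3 to 118. Tgfbr2 followed at a median of 33.1 TPM, Ltbp1 at 25.7, Tgfb3 at 25.0, Tgfbr1 at 18.3, Smad3 at 14.1, Inhba at 11.3 and Smad7 at 10.3. From Tgfbr2 down to Smad7 each gene differed from the next by less than the SD of either over the tumours, so the order of neighbours in that stretch is not firm. Tgfb2 stood far below the rest at a median of 0.479 TPM, with a highest tumour at 1.72, and its counts of 5 to 124 per library give it the least precision of the 9. By the ratio of the highest to the lowest tumour Inhba and Smad3 had the widest ranges, from 0.830 to 46.2 TPM and from 1.34 to 50.5 TPM.

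Among the 3 ligand genes, which encode alternative TGF-beta isoforms for the same receptors, Tgfb1 made up most of the summed TPM and Tgfb3 nearly all of the rest. Tgfb1 took 67.7% ± 5.44 (SD, n = 7), 71.4% ± 5.11 (n = 10) and 73.4% ± 6.39 (n = 12) of the sum in young isotype, anti-PD-L1 and anti-CTLA4 tumours. It took 62.6% ± 3.24 (n = 7), 65.5% ± 2.63 (n = 8) and 64.97% ± 2.99 (n = 8) in the matching aged groups, so each aged mean lay under its young counterpart. This share does not depend on how a library was scaled. In batch 1 alone it was 70.8 to 80.9% in the 4 young anti-CTLA4 tumours, and 62.4 to 67.8% in the 7 aged anti-CTLA4, 61.5 to 69.2% in the 8 aged anti-PD-L1 and 60.01 to 68.3% in the 3 aged isotype tumours. The young tumours of that batch did not overlap with any aged group, which is given here as a description without a test. Over all batches the ranges overlapped in each age pair. They were 63.7 to 82.6% in young and 58.8 to 67.8% in aged tumours under anti-CTLA4. Under isotype they were 59.3 to 73.7% and 58.2 to 68.3%, and under anti-PD-L1 64.5 to 79.8% and 61.5 to 69.2%. Tgfb2 never averaged more than 1.01% in a group.

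**Figure D1:**
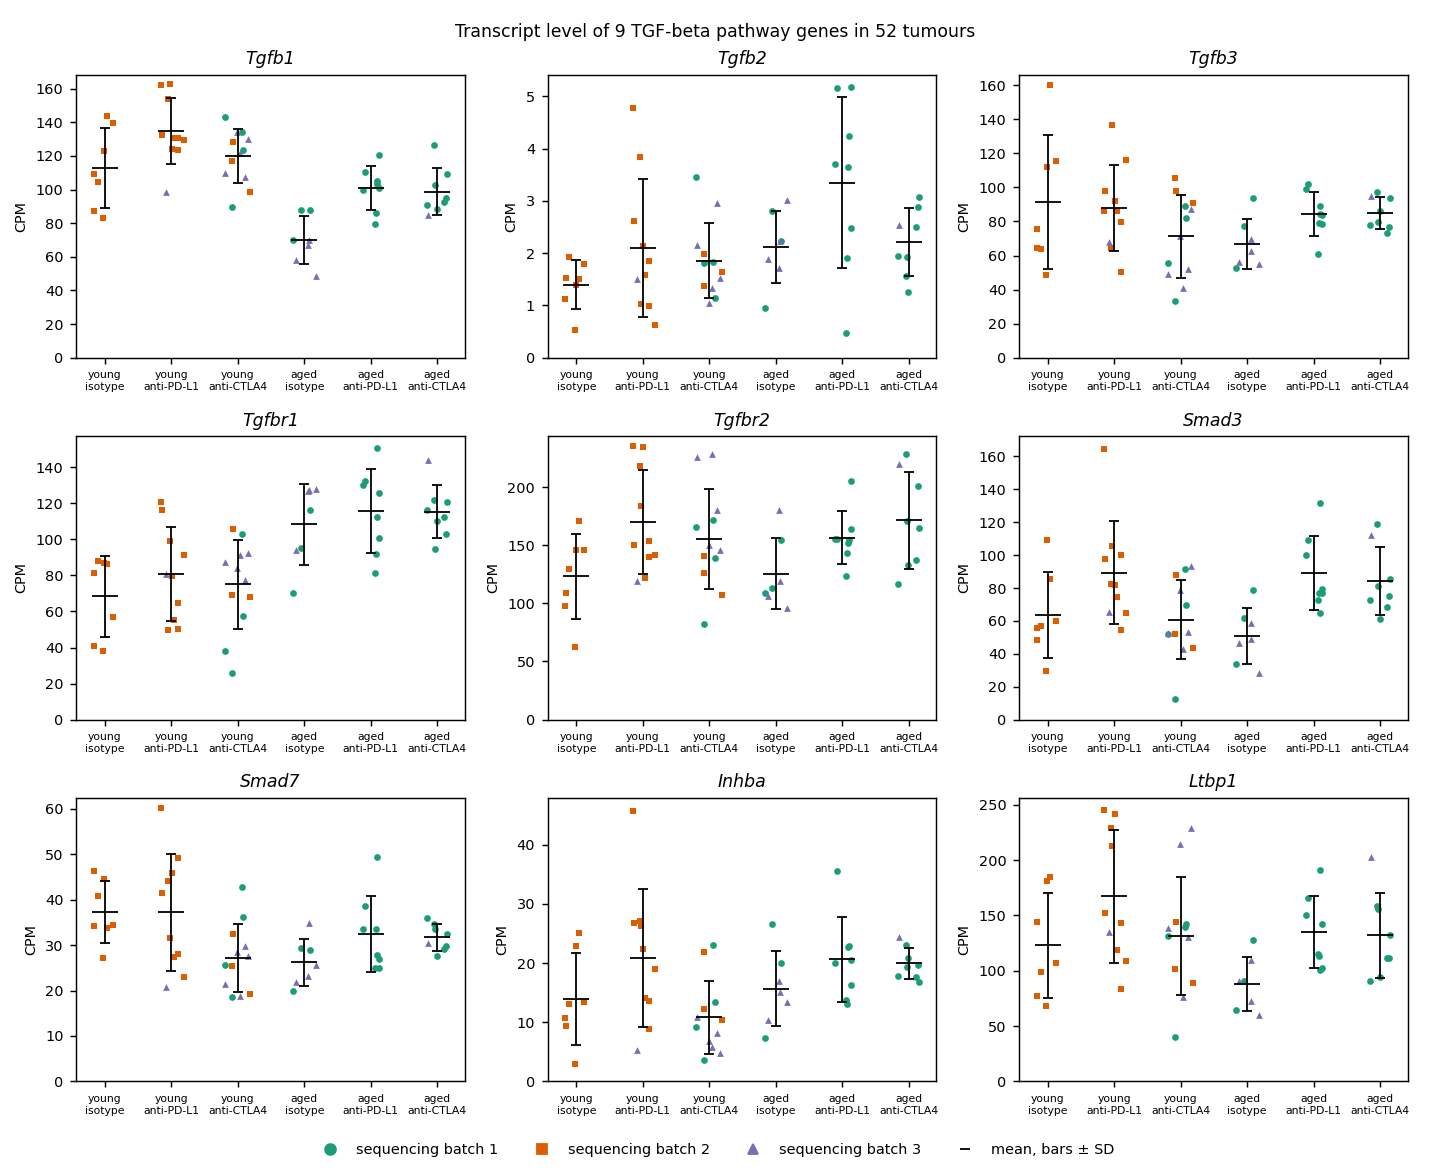
CPM of each of the 9 genes (vertical axes) in every tumour, by group (horizontal axes), with 1 point per library, its shape giving the sequencing batch. Aged isotype tumours lie lowest for Tgfb1 (48.9 to 87.8 CPM), and the aged groups lie high for Tgfbr1.

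Host age gave the only differences among the 9 genes that passed the test. Tgfb1 was lower in aged than in young hosts under isotype and under anti-CTLA4, and Tgfbr1 and Inhba were higher in aged hosts under anti-CTLA4. Each value below is a log2 fold change, aged minus young, ± SE, with the Benjamini-Hochberg adjusted p of edgeR's quasi-likelihood test over all genes. Under anti-CTLA4 3 of 9 members passed, where 30.6% of all genes tested did (14.8% higher and 15.9% lower in aged hosts). Under isotype 1 of 9 passed, where 8.41% of all genes did (4.36% higher, 4.04% lower). Under anti-PD-L1 none of 9 did, where 5.04% of all genes did (3.08% higher, 1.97% lower). There 2 members had an unadjusted p under 0.05, beside 21.1% of all genes. DESeq2 called 2 members there, beside 1532 of the 17899 genes. The members' share is near that background in each comparison and is not a result about the group of 9. Their median log2 fold change was -0.10 under isotype, 0.15 under anti-PD-L1 and 0.23 under anti-CTLA4, beside -0.09, -0.06 and -0.06 over all genes.

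Tgfb1, the main TGF-beta ligand of these tumours, had a lowest, median and highest level of 83.3, 109 and 144 CPM in young isotype tumours and of 48.9, 70.0 and 87.8 CPM in aged ones. All 7 aged isotype tumours lay under the young median, and the ranges overlapped only between 83.3 and 87.8 CPM. The log2 fold change was -0.66 ± 0.18 (adjusted p = 0.0186). The call was lost without aged isotype replicate 2 (-0.57, adjusted p = 0.0534) and without the filter on low counts (-0.58, adjusted p = 0.095). Since these groups share no batch, the value rests on batch terms estimated from the other groups. The 4 aged isotype tumours of batch 3 (48.9 to 69.97 CPM) all lay under the 3 of batch 1 (70.3 to 87.8 CPM).

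Under anti-CTLA4 Tgfb1 stood at 89.6, 123 and 143 CPM (lowest, median, highest) in young and 84.6, 93.6 and 127 CPM in aged tumours, with 7 of 8 aged tumours under the young median. It fell by 0.38 on the log2 scale ± 0.12 (adjusted p = 0.0139), and the call held without any 1 of the 20 libraries (-0.44 to -0.34). It was lost without the filter on low counts (-0.33, adjusted p = 0.0885) and within batch 1 (-0.27 ± 0.13, adjusted p = 0.139). On the TPM scale, which differs from CPM by 1 factor per library, the group means were nearly equal, 58.0 ± 16.7 (SD, n = 12) in young and 56.8 ± 17.2 (n = 8) in aged tumours, while the TPM medians were 67.4 in young and 54.3 in aged tumours. Under isotype the TPM medians were 40.5 in the 7 young and 33.8 in the 7 aged tumours.

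Under anti-PD-L1 Tgfb1 stood at 98.6, 131 and 163 CPM in young and 79.3, 102 and 121 CPM in aged tumours. All 8 aged tumours lay under the young median. The log2 fold change of -0.52 ± 0.18 did not pass (adjusted p = 0.0761). It passed in 5 of 8 alternative settings, with adjusted p from 0.00031 to 0.321 over the 8. These were the length trend as a covariate (-0.66), no batch term (-0.42), only the groups compared (-0.41), DESeq2 (-0.52) and the low TMM libraries left out (-0.57). It also passed without young replicate 1 (-0.63, adjusted p = 0.0339). The groups share no batch.

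Tgfbr1 encodes the type I receptor, the kinase that phosphorylates Smad2 and Smad3. Under anti-CTLA4 it stood at 26.0, 80.7 and 106 CPM in young and 94.5, 114 and 144 CPM in aged tumours, and all 8 aged tumours lay above the young median. It rose by 0.89 ± 0.21 (adjusted p = 0.00123), and it also passed in each of 9 alternative settings and without any 1 of the 20 libraries (0.77 to 1.13). Within batch 1, where the 4 young tumours had 26.0, 38.1, 57.6 and 103 CPM and the 7 aged ones 94.5 to 122, the change was 1.00 ± 0.26 (adjusted p = 0.00642). The TPM means were 14.1 ± 6.35 (SD, n = 12) in young and 24.8 ± 7.07 (n = 8) in aged tumours. The 2 lowest young tumours of the batch were replicates 8 and 9, and replicate 8 is one of the 4 libraries with a low scaling factor.

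Under the other antibodies Tgfbr1 had values on the same side without passing in the fit with group and batch. In isotype tumours it stood at 37.9, 81.4 and 88.2 CPM in young and 70.1, 116 and 128 CPM in aged hosts (0.83 ± 0.31, adjusted p = 0.083), with 6 of 7 aged tumours above the young median. In anti-PD-L1 tumours it stood at 49.7, 80.3 and 121 CPM in young and 81.1, 119 and 151 CPM in aged hosts (0.97 ± 0.31, adjusted p = 0.0527), with 8 of 8 above. Those ranges overlap in both comparisons. Under isotype Tgfbr1 passed in 2 of 8 alternative settings, with the length trend as a covariate (adjusted p = 0.0229) and without a batch term (0.0328). Under anti-PD-L1 it passed in 3 of 8, with the length trend (adjusted p = 0.0192), DESeq2 (0.0237) and relative log expression size factors (0.0444). There it also passed without aged replicate 6, 7 or 8 or young replicate 2, 4, 7 or 10.

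Inhba encodes the subunit of activin A, a ligand of the wider family. Under anti-CTLA4 it stood at 3.69, 9.81 and 23.1 CPM in young and 16.8, 19.5 and 24.4 CPM in aged tumours. All 8 aged tumours lay above the young median, inside or just above the upper part of the young range. It rose by 1.00 ± 0.31 (adjusted p = 0.0129). The call was lost without aged anti-CTLA4 replicate 8 (0.76, adjusted p = 0.114), within batch 1 (0.66 ± 0.36, adjusted p = 0.175) and with the length trend as a covariate (0.35, adjusted p = 0.202). Under isotype the value was 1.14 ± 0.52 (adjusted p = 0.156) with 5 of 7 aged tumours above the young median, and under anti-PD-L1 it was 0.66 ± 0.51 (adjusted p = 0.468) with 3 of 8. These groups share no batch, and without a batch term the values were 0.17 and -0.02, beside mean levels of 13.9 CPM in young and 15.7 CPM in aged isotype tumours. Under isotype Inhba passed in 1 of 8 alternative settings, with the length trend as a covariate (1.15 ± 0.30, adjusted p = 0.00584).

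The other 6 genes did not pass in any age comparison in the fit with group and batch. Tgfb2 had values of 0.58 (isotype), 0.65 (anti-PD-L1) and 0.23 (anti-CTLA4), and Tgfb3 of 0.11, 0.40 and 0.38. The type II receptor gene Tgfbr2 had -0.10, -0.11 and 0.21, and the transducer gene Smad3 had -0.17, 0.15 and 0.52 (± 0.26, adjusted p = 0.13, under anti-CTLA4). The inhibitor gene Smad7 had -0.36, -0.17 and 0.18, and Ltbp1 had -0.57, -0.24 and 0.10. The values of Tgfbr2, Smad3, Smad7 and Ltbp1 sat on either side of 0 depending on the antibody, and none of the 6 genes had a value over 2 SE in size. Some passed in an alternative setting. With the length trend as a covariate Ltbp1 was called lower in aged hosts under isotype (-0.67, adjusted p = 0.0335) and anti-CTLA4 (-0.45, adjusted p = 0.0351). With only the groups compared Smad7 was called lower under isotype (-0.50, adjusted p = 0.0426).

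**Figure D2:**
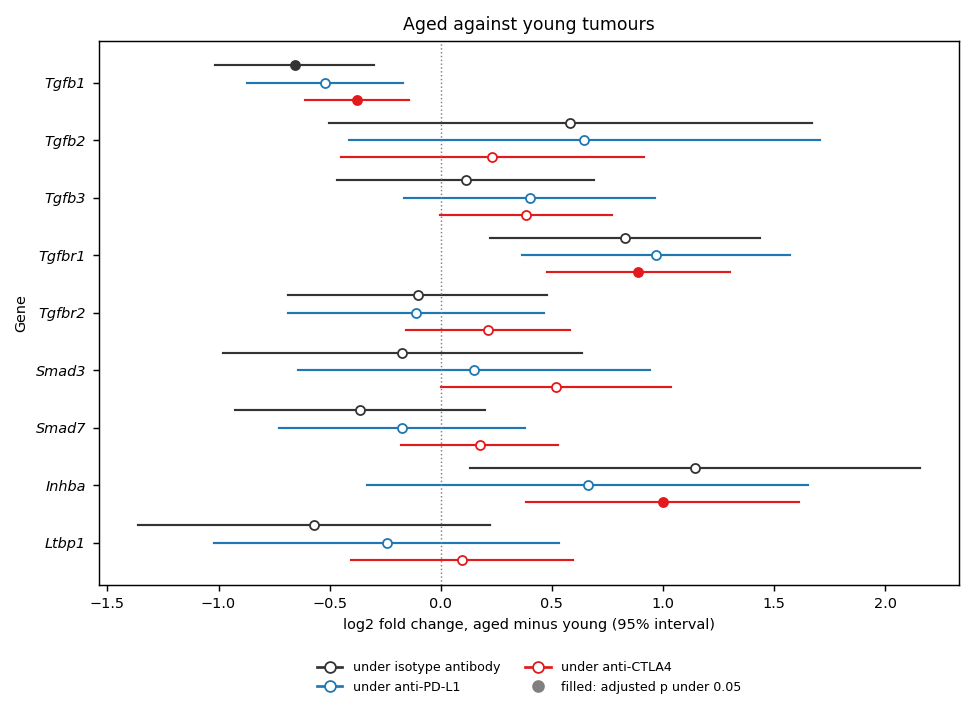
Log2 fold change of each member, aged minus young (horizontal axis), under each antibody, as a point with an interval, filled where the adjusted p was under 0.05. The filled points are Tgfb1 under isotype (-0.66) and Tgfb1 (-0.38), Tgfbr1 (0.89) and Inhba (1.00) under anti-CTLA4.

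Other genes of the pathway were read from 6 lists with 62 tested genes. Under anti-CTLA4 8 of them rose and 6 fell with age, where 14.8% of all genes were called higher and 15.9% lower, so the 14 calls among 62 are not more than that background. By list, the transducers and their regulators held 7 of the 8 that rose, 7 of 14, and none that fell, with a median log2 fold change of 0.33. Smurf2, a ubiquitin ligase that targets the receptors and Smad proteins, rose by 0.85 ± 0.15 (adjusted p = 6.47e-05). Skil, which encodes the Smad corepressor SnoN, rose by 1.01 ± 0.19 (adjusted p = 0.000122), and Smad2, the partner transducer of Smad3, by 0.59 ± 0.12 (adjusted p = 0.000317).

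The 6 that fell belonged to other lists, and 6 of 48 genes is not above the 15.9% of all genes called lower. Nrros, which holds latent TGF-beta on macrophages and microglia, fell by 0.79 on the log2 scale ± 0.15 (adjusted p = 8.25e-05), and it was 1 of the 2 latency genes that fell of 13, with 1 that rose. Acvrl1, an endothelial type I receptor, had -0.94 ± 0.20 (adjusted p = 0.000385) and was 1 of 2 receptor genes that fell of 8, with none that rose. Timp1, an inhibitor of matrix proteases and a TGF-beta target, fell by 0.98 on the log2 scale ± 0.21 (adjusted p = 0.00046), and it was 1 of 2 targets that fell of 18, with none that rose. None of 3 ligand genes and none of 6 antagonist genes passed.

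In the other age comparisons 4 of 62 passed under isotype, beside 8.41% of all genes, and 2 of 62 under anti-PD-L1, beside 5.04%, and neither count is above its background. Under isotype 3 of the 14 transducers and regulators rose, and these were Ppm1a, a phosphatase of Smad2 and Smad3 (0.60 ± 0.14, adjusted p = 0.00733), Smad2 (0.61 ± 0.18, adjusted p = 0.0267) and Smurf2 (0.76 ± 0.23, adjusted p = 0.0309). Under anti-PD-L1 Smurf2 (0.80 ± 0.23, adjusted p = 0.0307) and Ppm1a (0.46 ± 0.14, adjusted p = 0.0469) rose, and no gene of the other 5 lists passed. Some of these calls turned on single libraries. Without young isotype replicate 5 neither Smurf2 nor Smad2 passed under isotype (adjusted p = 0.0505 and 0.0524), and without aged isotype replicate 2 Smurf2 did not (adjusted p = 0.062). Under anti-PD-L1 Smurf2 did not pass without aged replicate 3 or 4 (adjusted p = 0.0543 and 0.0512), and Ppm1a did not without any 1 of aged replicates 1 to 5 or young replicates 4, 5, 6 and 9 (adjusted p = 0.051 to 0.0818). These groups share no batch, and without a batch term neither Smurf2 (0.32 and 0.38) nor, under anti-PD-L1, Ppm1a (0.20) passed, and Smad2 under isotype (0.31) did not either.

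Markers of other cell types moved with age as well. Under anti-CTLA4 all 7 neutrophil markers fell, with a summed level of 7.83 to 11.7 (log2 summed CPM) in young and 6.75 to 8.22 in aged tumours. Of the T cell markers 5 of 7 fell (6.27 to 9.81 in young, 5.13 to 7.22 in aged), and of the macrophage markers 3 of 9 (13.2 to 14.9 in young, 12.6 to 13.8 in aged). Of the tumour epithelium markers 4 of 7 rose (9.31 to 11.4 in young, 11.1 to 11.7 in aged). Platelet markers, of interest because platelets carry much TGF-beta, had 3 of 4 tested members that fell (5.43 to 8.11 in young, 3.65 to 5.36 in aged). Pf4, 1 gene of that list, averaged 145 ± 95.9 CPM (SD, n = 12) in young and 21.9 ± 10.9 (n = 8) in aged tumours. Which cells gave its reads cannot be told in whole tumours. Fibroblast markers had 1 of 10 that rose and endothelial markers none of 7 that passed, with level differences of 0.27 ± 0.32 and -0.19 ± 0.24 (log2, ± SE). The length trend was also higher in aged tumours there, by 0.19 ± 0.07. With the length trend as a covariate Tgfb1 stood at -0.63 and Tgfbr1 at 0.60, both called. The part of these cell types and of the length trend in the members' differences was otherwise not tested.

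The marker levels of the other age comparisons were as follows. Under isotype the neutrophil level differed by -1.17 ± 0.75, the T cell level by -1.70 ± 0.86, the platelet level by -1.49 ± 0.62 and the epithelial level by 0.87 ± 0.35, with 2 of 7 epithelial markers called and none of the neutrophil, T cell or platelet ones. The macrophage level differed by 0.13 ± 0.29 and the fibroblast level by 0.19 ± 0.48. Under anti-PD-L1 the neutrophil level differed by -2.61 ± 0.74 (4 of 7 called lower), the T cell level by -1.77 ± 0.84, the platelet level by -2.64 ± 0.61 (2 of 4) and the epithelial level by 0.89 ± 0.35 (2 of 7 called higher). There the macrophage level differed by 0.004 ± 0.29 and the fibroblast level by -0.03 ± 0.47. The skeletal muscle level was higher in aged tumours, by 1.87 ± 0.61 under isotype, 2.01 ± 0.60 under anti-PD-L1 and 1.59 ± 0.41 under anti-CTLA4, with 1 of 3 tested markers called higher in each. The neutrophil gene Ly6g and the platelet gene Ppbp, both defining markers, were at 0 in at least 1 young isotype library.

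None of the 9 members passed between an antibody and isotype, in either age. In young hosts anti-PD-L1 was called for 1.59% of all genes (0.223% higher, 1.37% lower) and anti-CTLA4 for 0.0726% (0.00559% higher, 0.067% lower), and in aged hosts 0% of genes passed for either antibody by edgeR. The zero in aged hosts comes beside 5379 genes (anti-PD-L1) and 5321 genes (anti-CTLA4) at an unadjusted p under 0.05, and beside 2378 and 1912 genes called by DESeq2.

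In aged hosts the members lay above 0 under both antibodies. Under anti-PD-L1 all 9 members had a log2 fold change above 0, with a median of 0.40 beside 0.05 over all genes. An unadjusted p under 0.05 was found for 4 of 9, beside 30.1% of all genes. Under anti-CTLA4 all 9 were again above 0, with a median of 0.31 beside 0.02 over all genes. Here too 4 of 9 had an unadjusted p under 0.05, beside 29.7% of all genes. Both comparisons use the same 7 isotype tumours, so their likeness is in part that of a shared control. DESeq2 called 3 members for anti-PD-L1 and 1 for anti-CTLA4.

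Smad3, the transducer, stood at 28.4, 49.0 and 78.6 CPM (lowest, median, highest) in aged isotype tumours, at 64.7, 78.2 and 132 CPM under anti-PD-L1 and at 60.9, 78.1 and 119 CPM under anti-CTLA4. All 8 tumours of each antibody lay above the isotype median, and the ranges overlapped. The log2 fold changes were 0.82 ± 0.29 (adjusted p = 0.0878) and 0.74 ± 0.28 (adjusted p = 0.0986).

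Ltbp1, which anchors latent TGF-beta in the matrix, stood at 59.9, 90.6 and 128 CPM in aged isotype tumours, at 101, 129 and 191 CPM under anti-PD-L1 and at 91.2, 122 and 203 CPM under anti-CTLA4. Here too all 8 tumours of each antibody lay above the isotype median. The values were 0.75 ± 0.28 (adjusted p = 0.0898) and 0.67 ± 0.27 (adjusted p = 0.104). Tgfbr2 stood at 95.6, 114 and 180 CPM in aged isotype tumours, at 124, 155 and 205 CPM under anti-PD-L1 and at 116, 168 and 229 CPM under anti-CTLA4. All 8 tumours of each antibody were above the isotype median, with 0.44 ± 0.21 (adjusted p = 0.146) and 0.54 ± 0.20 (adjusted p = 0.0957). Tgfb1, whose levels were given with the age comparison, had 0.40 under both antibodies (adjusted p = 0.0878 and 0.0956). All 8 tumours of each antibody lay above the isotype median for Tgfb1. That median falls between batches, with 48.9 to 69.97 CPM in the 4 isotype tumours of batch 3 and 70.3 to 87.8 CPM in the 3 of batch 1. The antibody tumours of batch 1 had 79.3 to 121 CPM (anti-PD-L1, n = 8) and 88.3 to 127 CPM (anti-CTLA4, n = 7).

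The results of these 4 genes turned on 1 control tumour. Without aged isotype replicate 5, the highest aged isotype tumour for Tgfb1, Smad3 and Ltbp1, 3 members passed for anti-PD-L1 (Tgfb1, Smad3 and Ltbp1, adjusted p = 0.0364, 0.0366 and 0.0367) and 4 for anti-CTLA4 (Tgfb1, Tgfbr2, Smad3 and Ltbp1, adjusted p = 0.0424 for each). The share of all genes that passed in that refit is not given here, so these counts have no background beside them. Within batch 1, where only 3 isotype tumours remain and replicate 5 is one of them, the values were smaller: 0.29 and 0.32 for Tgfb1, 0.60 and 0.49 for Smad3, 0.50 and 0.39 for Ltbp1 and 0.31 and 0.40 for Tgfbr2 under anti-PD-L1 and anti-CTLA4, with adjusted p = 0.644 and 0.83. With the length trend as a covariate they were smaller again, at 0.17 and 0.10 for Smad3, 0.12 and 0.04 for Ltbp1, 0.11 and 0.12 for Tgfb1 and -0.06 and 0.04 for Tgfbr2.

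The other 5 members in aged hosts had an unadjusted p above 0.05 under both antibodies. Tgfb2 had 0.64 under anti-PD-L1 and 0.05 under anti-CTLA4, and Tgfb3 0.29 and 0.31. Tgfbr1 had 0.37 and 0.31, Smad7 0.20 and 0.19, and Inhba 0.14 and 0.18. Alongside, the neutrophil level differed by -1.33 ± 0.56 (anti-PD-L1) and -1.35 ± 0.54 (anti-CTLA4), the ribosomal protein genes, a sign of RNA or library quality, by -0.78 ± 0.31 and -0.80 ± 0.30, and the length trend by 0.22 ± 0.08 and 0.21 ± 0.07. No single marker of these lists passed. With the length trend as a covariate 5 of the 9 values under each antibody turned below 0, among them Inhba (-0.72 and -0.64).

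In young hosts anti-PD-L1 had a median over the members of 0.43 beside 0.02 over all genes. Of the 9 members 2 had an unadjusted p under 0.05, where 24.2% of all genes did. Tgfb1 stood at 83.3, 109 and 144 CPM under isotype and 98.6, 131 and 163 CPM under anti-PD-L1, with 9 of 10 tumours above the isotype median and 0.27 ± 0.11 (adjusted p = 0.146). Tgfbr2 stood at 62.8, 129 and 171 CPM under isotype and 120, 152 and 235 CPM under anti-PD-L1, with 8 of 10 above and 0.45 ± 0.18 (adjusted p = 0.13). Both ranges overlap widely. Inhba had 0.63 ± 0.32 (adjusted p = 0.214), Tgfb2 0.58 ± 0.35, Smad3 0.50 ± 0.26 (adjusted p = 0.225), Ltbp1 0.43 ± 0.25 and Tgfbr1 0.24 ± 0.20, while Tgfb3 (0.00) and Smad7 (0.01) showed no difference in their means beyond an SE of 0.20 and 0.17. The fibroblast level differed by 0.69 ± 0.31 with 1 of 10 markers called, the endothelial level by 0.57 ± 0.23 with none of 7 called, the ribosomal level by -0.68 ± 0.27 and the length trend by 0.16 ± 0.07, and their part in these values was not tested.

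Anti-CTLA4 in young hosts had the smallest values. They ran from -0.35 for Smad7 (adjusted p = 0.861, with 10 of 12 tumours under the isotype median) to 0.40 for Tgfb2 (adjusted p = 0.94), with a median of 0.12 beside -0.04 over all genes. No member had an unadjusted p under 0.05. Young isotype tumours lie in batch 2 alone and only 3 of the 12 anti-CTLA4 tumours share it.

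**Figure D3:**
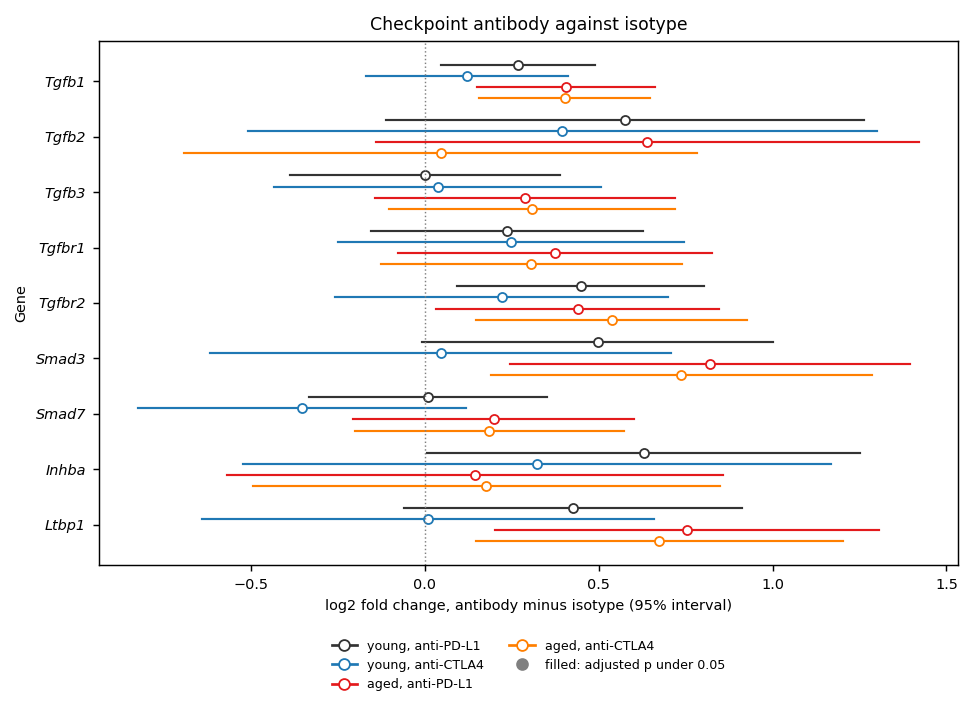
Log2 fold change of each member, antibody minus isotype (horizontal axis), for both antibodies in young and in aged hosts, as a point with an interval. In aged hosts all 9 members lie above 0 under both antibodies, with Smad3 (0.82 and 0.74) and Ltbp1 (0.75 and 0.67) the farthest out, and no point passed the test.

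Of the 62 other pathway genes, 1 passed between an antibody and isotype. By edgeR 1, 0, 0 and 0 passed for young anti-PD-L1, young anti-CTLA4, aged anti-PD-L1 and aged anti-CTLA4, with 23, 3, 19 and 17 at an unadjusted p under 0.05 and 3, 0, 8 and 7 called by DESeq2. Over all genes 1.59%, 0.0726%, 0% and 0% passed and 24.2%, 6.97%, 30.1% and 29.7% had an unadjusted p under 0.05. Their median log2 fold changes were 0.33, 0.09, 0.33 and 0.31, beside 0.02, -0.04, 0.05 and 0.02 over all genes. Adam12, a metalloprotease gene induced by TGF-beta in fibroblasts, rose by 1.58 ± 0.41 under anti-PD-L1 in young hosts (adjusted p = 0.0365). It passed in 3 of 9 alternative settings and without 11 of 17 single libraries. The call was lost without young isotype replicate 1 or 6 (adjusted p = 0.0851 and 0.182) and without young anti-PD-L1 replicate 4, 5, 6 or 9 (adjusted p = 0.133, 0.082, 0.0567 and 0.051), and with the length trend as a covariate the value was 0.66. Beside it stood Lox at 1.14 ± 0.33 (adjusted p = 0.0559) and the integrin gene Itgb6, whose product activates latent TGF-beta, at -0.81 ± 0.55 (adjusted p = 0.351). Itgb6 turned to 0.36 without young isotype replicate 1. Under anti-CTLA4 in young hosts the genes named were Itgb6 (-1.21 ± 0.85, adjusted p = 0.867) on the lower side and the antagonist gene Lefty1 (0.75 ± 0.30, adjusted p = 0.534) and Acvrl1 (0.63 ± 0.26, adjusted p = 0.547) on the higher side. In aged hosts the smooth muscle target Tagln had -0.74 under both antibodies (adjusted p = 0.0921 and 0.0956) and Cdkn2b, a cell cycle inhibitor gene, -0.41 and -0.52 (adjusted p = 0.276 and 0.158). Their counterparts on the higher side were the latency gene Ltbp4 (1.01 ± 0.31) and the corepressor gene Ski (0.87 ± 0.27) under anti-PD-L1, both with adjusted p = 0.0878, and the activin receptor gene Acvr1b (0.54 ± 0.17) and the coreceptor gene Tgfbr3 (0.92 ± 0.29) under anti-CTLA4, both with adjusted p = 0.0956.

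No member passed between the antibodies, or in the difference of its antibody effect between ages. Anti-CTLA4 minus anti-PD-L1 ran from -0.45 to 0.04 in young and from -0.59 to 0.10 in aged hosts. The differences between the aged and the young antibody effect ran from -0.48 to 0.33 for anti-PD-L1 and from -0.35 to 0.69 for anti-CTLA4. In these 4 comparisons 0% of all genes passed by edgeR, with 1242, 243, 655 and 1257 genes at an unadjusted p under 0.05 and 13, 18, 31 and 18 called by DESeq2, and no member was among either.

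Across the 52 tumours the members mostly varied together. Pearson's r of log2 CPM was above 0 for 35 of the 36 pairs, with a median of 0.46, and 28 pairs had a permutation p under 0.05 after adjustment over the 36. The permutations ignored group and batch, so that count takes in differences between them. In the residuals from group and batch 33 pairs passed. Smad3 and Ltbp1 were the closest pair (r = 0.851, Spearman's rho = 0.844, and for both the smallest p that 100000 permutations can give, 1e-05). Their r was 0.912, 0.853 and 0.913 within batches 1, 2 and 3, 0.802 without the 2 libraries farthest from the median of Smad3, and 0.876 in the residuals from group and batch. Next came Smad3 with Inhba (r = 0.709, rho = 0.717) and Smad3 with Tgfb3 (r = 0.704, rho = 0.673). The former did not hold in batch 3, where r was -0.038 over 11 libraries.

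Tgfb1 and Tgfbr1, the ligand and receptor that moved in opposite directions with age, were the only pair with r under 0 (r = -0.206, rho = -0.245, adjusted permutation p = 0.156 for r). Within batches it was -0.029, 0.390 and -0.651, and without the 2 farthest libraries -0.159. In the residuals from group and batch, which remove the age difference, it was 0.436. The pooled value therefore does not hold within groups. Pairs were fewer within batch 3, where 3 of 36 passed over 11 libraries, against 22 in batch 1 and 27 in batch 2.

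All 9 members also rose along the length trend of the libraries, with r from 0.353 for Tgfb1 to 0.839 for Tgfbr2, and with 0.818 for Smad3. In the residuals from group and batch the same r ran from 0.449 to 0.862. The part of the length trend in the correlations among the members was not tested.

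**Figure D4:**
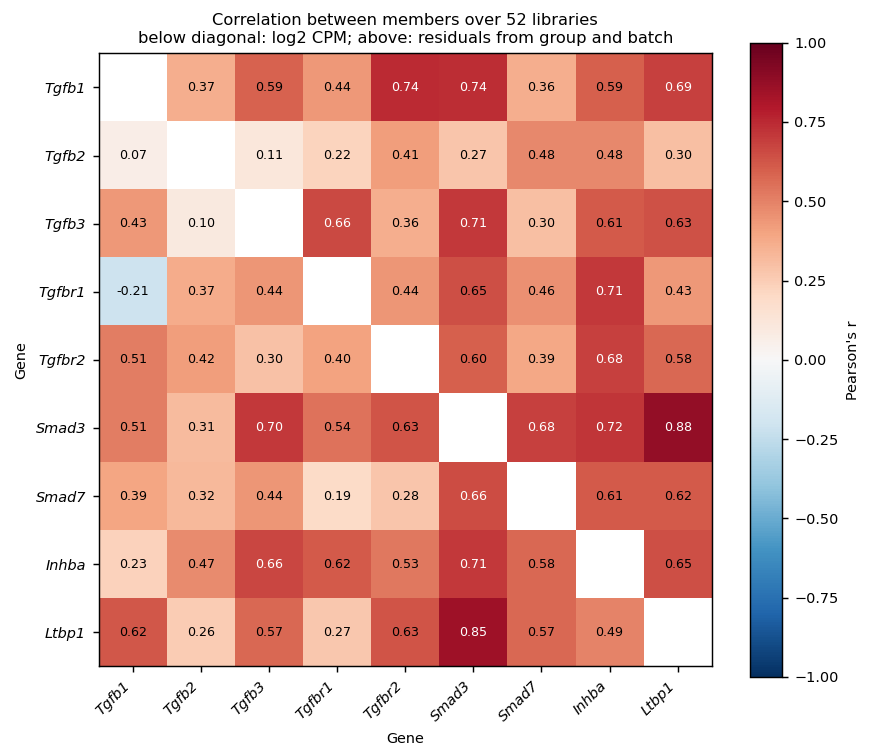
Pearson's r between each pair of members over the 52 tumours, as a colour scale with the value in each cell. In log2 CPM Smad3 and Ltbp1 have the highest value (0.851), and Tgfb1 with Tgfbr1 the only negative one (-0.206).

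The members differed in the cell type markers they followed, among 117 pairs of a member and a marker or quality level. Tgfb3 followed the tumour epithelium markers (r = 0.680, rho = 0.597, adjusted permutation p = 6.5e-05), with r of 0.697, 0.746 and 0.760 in batches 1, 2 and 3, 0.638 without the 2 farthest libraries and 0.737 in the residuals. It ran against the neutrophil markers (r = -0.682, with -0.839, -0.724 and -0.488 in the batches). Pooled over the 52 tumours Tgfb1 did neither, with r of -0.154 for epithelium and -0.041 for neutrophils. The 2 abundant ligand genes stood apart in this respect by pooled value only. Pooled values take in the differences between groups, and those of Tgfb1 within batches or in the residuals are not given here. In the residuals from group and batch Tgfb1 and Tgfb3 had r = 0.592 with each other.

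Tgfbr2 followed the markers of fibroblasts (r = 0.727, rho = 0.694) and of endothelium (r = 0.722, rho = 0.678). For fibroblasts the values were 0.734, 0.754 and 0.741 in the batches, 0.692 without the 2 farthest libraries and 0.699 in the residuals. For endothelium they were 0.356, 0.870 and 0.942 in the batches, 0.746 and 0.690. Tgfb2 followed the fibroblast markers less closely (r = 0.551, rho = 0.540, with 0.457, 0.751 and 0.234 in the batches). Tgfbr1, the other receptor gene, followed neither fibroblasts (r = 0.202) nor endothelium (r = -0.102) by pooled value, and values within batches are not given for these 2. Tgfbr1 ran against the neutrophil markers (r = -0.639, rho = -0.600, with -0.845, -0.404 and -0.835 in the batches and -0.555 in the residuals). Smad3 ran against the macrophage markers (r = -0.711, rho = -0.649, with -0.750, -0.726 and -0.540 in the batches and -0.667 in the residuals). Within a bulk tumour a larger share of one cell type lowers the shares of all others, so these relations are not independent of each other.

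**Figure D5:**
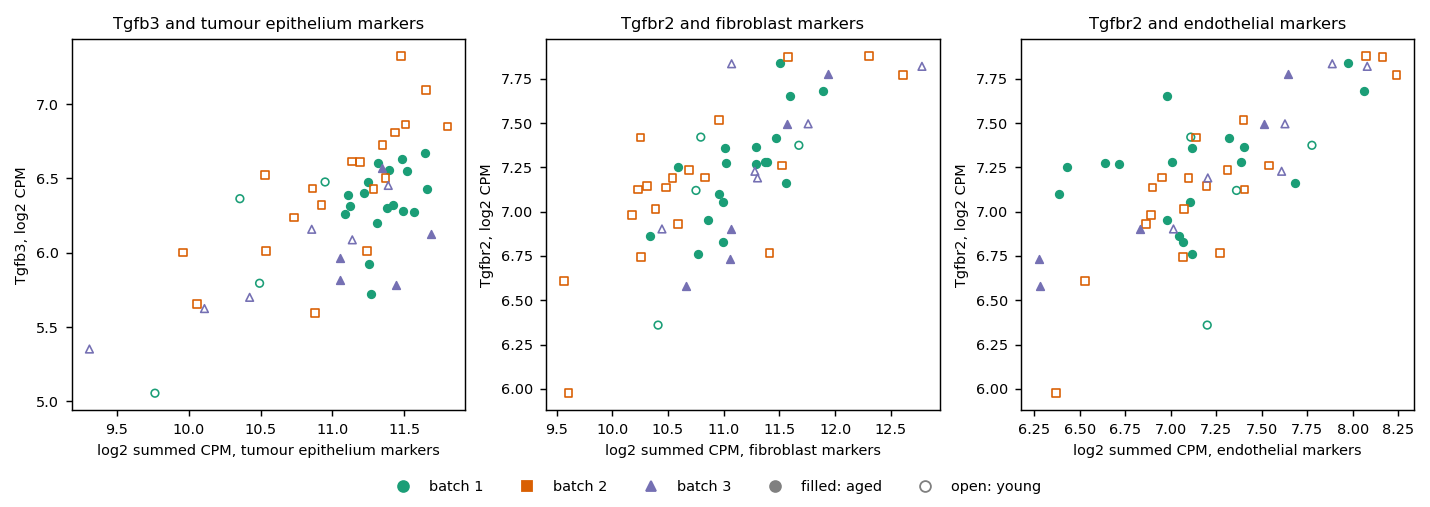
Log2 CPM of Tgfb3 against the summed tumour epithelium markers (left), and of Tgfbr2 against the summed fibroblast (middle) and endothelial (right) markers, in log2 summed CPM, with 1 point per tumour. All 3 panels rise from left to right, with r = 0.680, 0.727 and 0.722 over 52 tumours.

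For each member the 3 genes of most similar level over the 52 tumours were taken from 13160 candidates, as a description by Pearson's r of log2 CPM. Tgfbr1 was closest to Skil (0.915), the corepressor gene that also rose with age under anti-CTLA4, then to Arhgap12 and Cxadr. Smad3 was closest to Nfix (0.954), a transcription factor gene, then to Neo1 and Farp1, and Ltbp1 to Bcr (0.947), then to Flt1, a VEGF receptor gene, and Ano6. Tgfbr2 was closest to Arhgap31 (0.944), Osbpl11 and Il6st, and Tgfb1 to Rab11b (0.909), Tmem214 and Elovl1. Tgfb3 was closest to Etv1 (0.902), an ETS family transcription factor gene, Lrrc75b and Padi4. Inhba was closest to Fgfr2 (0.929), to Rbpj-ps3 (0.929), a pseudogene whose reads are uncertain, and to Btbd7. The lowest likeness was that of Tgfb2, to Adam12 (0.689), Dkk3 and Tnn, and of Smad7, to Zfp651 (0.756), Ankrd13b and Lif.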

How the data were processed

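Poly(A) RNA libraries made from 500 ng of total RNA with a strand-marking kit were sequenced as paired reads of 75 bases, per the labels' protocols. Salmon (no version), the build mm10 and DESeq2 1.16.1 are named by the submitters' processing notes. The authors deposited estimated counts per gene, all whole numbers, and TPM values of the same libraries. The step from transcripts to genes and the strand setting are not given in the sources used here. Values of overlapping, antisense or near-identical genes are therefore uncertain. A GENCODE vM21 symbol was found for 47224 of the 47729 identifiers.

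Groups and batches came from the labels. The test was that of edgeR 4.0.16 (R 4.3.3): filterByExpr, TMM factors, 1 fit over all 52 libraries with group and batch, quasi-likelihood F tests, Benjamini-Hochberg adjustment over 17899 genes and a threshold of 0.05. The 11 comparisons were antibody versus isotype at each age, host ages under each treatment, anti-CTLA4 versus anti-PD-L1 at each age, and aged minus young antibody effects. CPM values use TMM factors, and log2 CPM a prior count of 2. Marker levels were compared with limma 3.58.1, DESeq2 1.42.0 was an alternative, and permutations were run with scipy 1.17.1. On simulated counts for aged against young anti-CTLA4 (17713 genes) the test recovered 61 of 100 planted 2-fold and 85 of 100 planted 4-fold changes, with 7 false calls among 17513 unchanged genes. Those counts were drawn gene by gene from 1 mean per gene, with no batch effect and no length trend. The simulation therefore says nothing about errors that batches or the length trend could bring. No 2 libraries of a group were alike within sampling noise (smallest chi-square per degree of freedom 19.2 over 209 pairs).

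The members, lists and tests were chosen with earlier results of these data known. All 9 members were named in each comparison with isotype and between ages. Of 62 tested genes in 6 other pathway lists, up to 6 of smallest p that passed were named, or, where fewer than 2 passed, the 2 of smallest p in each direction. Some results that this rule would name are not reported here. For the comparisons between antibodies and between effects only counts and ranges are given, and other pathway genes are not named there. For likeness the 3 genes of highest r were taken, leaving out predicted models and genes averaging under 1 CPM. The alternatives were other size factors, no filter, no batch term, a replicate block, libraries left out, a length trend covariate, only the groups compared, 1 batch alone and DESeq2. The p-values of the comparisons set a difference against the spread between tumours of a group. The permutations shuffled all libraries without regard to group or batch, so the p-values of pooled correlations also take in differences between groups and batches.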

Additional observations from a re-analysis of the deposited data

Results flagged for a closer look

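Within each group of up to 10 tumours the highest and lowest CPM of every member was compared with its nearest neighbour, and 2 of 45 gene and group pairs had a tumour standing apart by Dixon's 95% criterion, where chance alone gives about 1 in 20. Smad3 stood at 165 CPM in young anti-PD-L1 replicate 4, with the next tumour of the group at 106. Inhba stood at 35.6 CPM in aged anti-PD-L1 replicate 1, with the next tumour at 22.9. Without that tumour the value of Inhba for anti-PD-L1 against isotype in aged hosts fell below 0, as given under the processing.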

How the results depend on the processing

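The numbers of members called were compared over all settings tried. For most settings the share of all genes called is not given, so a shift in a count is not a result about the members. Under anti-PD-L1 against isotype in aged hosts the count of 0 became 1 without a batch term and 3 with DESeq2, and under anti-CTLA4 it became 1 with DESeq2. DESeq2 called 2378 and 1912 of the 17899 genes in these comparisons. With 1 library left out these counts ran from 0 to 3 and from 0 to 4, both highest without aged isotype replicate 5. For age under isotype the count of 1 became 0 without a filter and 0 with the replicate block, 2 without a batch term, 2 with only the groups compared and 4 with the length trend as a covariate, and 0 to 1 with a library left out. For age under anti-PD-L1 the count of 0 became 1 with relative log expression size factors, 1 without a batch term, 1 without the low TMM libraries, 1 with only the groups compared, 2 with the length trend and 2 with DESeq2, and 0 to 1 with a library left out, being 1 without aged anti-PD-L1 replicate 6, 7 or 8 or young anti-PD-L1 replicate 1, 2, 4, 7 or 10. For age under anti-CTLA4 the count of 3 became 1 within batch 1, where 5182 of 17690 genes passed. It was also lower without a filter and with the replicate block, where Tgfb1 was not called. With the length trend as a covariate the genes called changed: Inhba was not called, and Ltbp1 was called lower in aged hosts (-0.45, adjusted p = 0.0351). Pairs of members with an adjusted p under 0.05 fell from 28 to 3 in batch 3 alone. The cause of these shifts was not tested. Age comparisons under isotype and anti-PD-L1 have no value within a batch, since their groups share none.

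Signs turned mostly with the length trend as a covariate. In aged hosts under anti-PD-L1 it gave Tgfb3 -0.068, Tgfbr1 -0.0065, Tgfbr2 -0.063, Smad7 -0.14 and Inhba -0.72, and under anti-CTLA4 Tgfb2 -0.46, Tgfb3 -0.035, Tgfbr1 -0.046, Smad7 -0.13 and Inhba -0.64. For young anti-PD-L1 it gave Tgfbr1 -0.062, Smad7 -0.28 and Ltbp1 -0.089. For age under anti-CTLA4 it gave Tgfb2 -0.21, Tgfbr2 -0.22, Smad3 -0.015, Smad7 -0.089 and Ltbp1 -0.45, and for age under anti-PD-L1 Smad3 -0.11. Without a batch term age under isotype gave Tgfb3 -0.45 and Tgfbr2 0.028, age under anti-PD-L1 Tgfb3 -0.053, Smad3 -0.0034 and Inhba -0.021, and young anti-PD-L1 Smad7 -0.0045. With only the groups compared age under isotype gave Tgfb3 -0.44 and Tgfbr2 0.036, and age under anti-PD-L1 Tgfb3 -0.042 and Inhba -0.016. Without the low TMM libraries Tgfb3 was -0.059 (age, isotype), Smad3 -0.0199 (age, anti-PD-L1), Ltbp1 -0.035 (age, anti-CTLA4) and Itgb6 0.38 (young anti-PD-L1). In young anti-PD-L1 Smad7 was -0.0068 with relative log expression factors and -0.0066 with DESeq2, and Tgfb3 0.043 without a filter.

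With 1 library left out Tgfb3 ran from -0.11 to 0.20, Smad7 from -0.094 to 0.071 and Itgb6 from -1.11 to 0.36 in young anti-PD-L1. Inhba ran from -0.055 to 0.32 in aged anti-PD-L1 and from -0.073 to 0.33 in aged anti-CTLA4, and Tgfb2 there from -0.13 to 0.16. Smad3 ran from -0.31 to 0.012 for age under isotype, and Ltbp1 from -0.045 to 0.17 for age under anti-CTLA4.

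The replicate numbers do not pair tumours: deviations of tumours with the same number correlated at -0.543 to 0.513, and in no comparison did every pair exceed 0.1 or every tumour correlate best with its own number. With the replicate block Tgfb1 was no longer called with age under isotype (-0.61, adjusted p = 0.0645) or anti-CTLA4 (-0.34, adjusted p = 0.069), and Tgfbr2 was 0.046 for age under isotype, Tgfbr2 0.14 and Ltbp1 0.15 for age under anti-PD-L1, Tgfb2 -0.084 in aged anti-CTLA4 and Tgfb3 0.046 in young anti-PD-L1. The number of other pathway genes called with age under anti-CTLA4 (14) was 11 to 15 in the other settings and 25 with the length trend, and 10 to 17 with a library left out. Under isotype it was 4, and 2 to 15 over the settings, and under anti-PD-L1 2, and 0 to 13. In aged antibody comparisons it was 0, and 8 (anti-PD-L1) and 7 (anti-CTLA4) with DESeq2, and 15 and 10 without aged isotype replicate 5. In young anti-PD-L1 it was 1, and 0 to 3, and up to 8 without young anti-PD-L1 replicate 1. In young anti-CTLA4 it was 0, and 4 without a batch term. These numbers of pathway genes have no share of all genes called in the same setting beside them. Their shifts are therefore not a result about the pathway. Tgfb2, with 5 to 124 counts per library, is the member that depth limits most.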
